A study of Mus musculus with 10 samples.

Results

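The 8 genes *Cacna1a*, *Cacna1b*, *Cacna1c*, *Cacna1d*, *Cacna1e*, *Cacna1g*, *Cacna1h* and *Cacna1i*, which encode the pore-forming alpha-1 subunits of voltage-gated calcium channels, were examined in RNA-seq of the prefrontal cortex (PFC) of *Zbtb16* KO and WT mice. They were chosen by name, and all 8 of them, out of 22000 genes in the count table, passed the filter on low counts. The KO mice carried the *lu* allele of *Zbtb16*, a point mutation that makes a nonsense codon (strain B6.C3-*Zbtb16* lu/J). The WT mice carried the normal allele. There were 5 KO and 5 WT mice, all 7 weeks of age and labelled as male, with 1 library per mouse. The labels name no treatment, and the measured quantity was the number of reads on the exons of each gene.

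Calcium channels open when the membrane is depolarized, and the calcium that enters through them triggers transmitter release, shapes firing and signals from the synapse to the nucleus. The alpha-1 subunit alone forms the pore and senses voltage, and it decides the type of current. *Cacna1c* and *Cacna1d* give the L-type channels of neuronal cell bodies and dendrites, *Cacna1a* the P/Q-type and *Cacna1b* the N-type channels of presynaptic terminals, and *Cacna1e* the R-type channel. *Cacna1g*, *Cacna1h* and *Cacna1i* give the T-type channels, which open at low voltage and support burst firing. Beta and alpha2delta subunits bring the high-voltage-activated channels to the membrane and tune their gating.

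The family divides at the pore itself. Each alpha-1 subunit has 4 repeats, and each repeat gives 1 acidic residue to the filter that selects calcium over sodium. The coding sequence around that residue is shown for *Cacna1c*, as a high-voltage-activated channel, and for *Cacna1g*, as a T-type channel, because these are the genes with the largest differences between genotypes in the comparisons that follow. The runs are 24 bases long, were read from the Gencode M21 transcripts of GRCm38, and are written 5′ to 3′ on the coding strand with the filter codon in capitals.
Cacna1c repeat I: atcaccatgGAGggctggacagac
Cacna1c repeat II: ctgaccgggGAGgactggaattcg
Cacna1c repeat III: tccaccttcGAAgggtggccagag
Cacna1c repeat IV: gccaccggaGAGgcctggcaggac
Cacna1g repeat I: atcacactgGAGggctgggtcgac
Cacna1g repeat II: ctgactcagGAAgactggaataaa
Cacna1g repeat III: gcctccaagGATggctgggttgac
Cacna1g repeat IV: tccactggtGACaactggaatggt

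In *Cacna1c*, on the minus strand of chromosome 6, the runs lie at chr6:118751381-118751404, chr6:118686211-118686234, chr6:118654455-118656135 and chr6:118614050-118614073, all within coding exons. The run of repeat III is joined across an intron, which is why its coordinates span more bases than its sequence. In *Cacna1g*, on the minus strand of chromosome 11, they lie at chr11:94461959-94461982, chr11:94442859-94442882, chr11:94426459-94426482 and chr11:94416415-94416438, each inside 1 coding exon. *Cacna1c* has a glutamate codon, GAG or GAA, in all 4 repeats. *Cacna1g* has glutamate codons in repeats I and II and aspartate codons, GAT and GAC, in repeats III and IV. The same count was found throughout the family, since *Cacna1a*, *Cacna1b*, *Cacna1d* and *Cacna1e* had 4 glutamate codons and *Cacna1h* and *Cacna1i* had 2 glutamate and 2 aspartate codons. An intron split the repeat III run in all 5 high-voltage-activated genes and in none of the 3 T-type genes.

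The libraries held 30220122 to 51231439 counts, and 3 counts, taken as the floor of detection, equalled 0.0586 to 0.0993 CPM (counts scaled to a common library total of 1000000). The alpha-1 subunits were far above that floor, with 1197 to 15873 counts per gene and mouse, which gives a counting error of 0.939% to 2.46% of the level. The coefficient of variation between mice of 1 genotype was 2.304% to 16.3%, and for each gene and genotype the counting error was at most 45.5% of it. *Zbtb16* itself was at 41.7 to 52.5 CPM in KO and 70.5 to 89.1 CPM in WT mice, without overlap. KO mouse 3 went against its label, as 4 genes of the Y chromosome (*Uty*, *Kdm5d*, *Ddx3y* and *Eif2s3y*) summed to 1 count there and to 4376 to 8182 counts in the other 9 mice. It was kept under its label, and values without it are given in the course of the results. Without it 54 genes were called over the whole table in place of 121, and 0 of the 8 subunits, with log2 fold changes of 0.0307 for *Cacna1a*, -0.0018 for *Cacna1b*, 0.0392 for *Cacna1h* and -0.0267 for *Cacna1i*. The RNA integrity number (RIN), a score of RNA quality, fell in 2 clusters, at or above 9.5 in 6 mice (KO mice 1, 2 and 4 and WT mice 1, 2 and 5) and at or below 8.3 in 4 mice. Excitatory cortical neuron markers, 8 of 8 of which were tested, had a summed level of 2179 to 2557 CPM in KO and 2042 to 2345 CPM in WT mice. Most of this sum was *Slc17a7*, with means of 1666 CPM in KO and 1562 CPM in WT mice. These markers do not tell the PFC from other cortex, so the PFC label itself was not tested.

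Each subunit was first placed by its level, as CPM per kilobase of merged exons over all 10 mice. *Cacna1a*, the P/Q-type subunit, had the highest level, 22.4 ± 0.69 CPM per kb (SD, n = 10). *Cacna1i* and *Cacna1b* followed at 17.6 ± 0.88 and 17.0 ± 1.33 CPM per kb, a pair that was not separated (exact sign-flip permutation test within mice, two-sided, p = 0.223). *Cacna1g* at 12.3 ± 1.04 and *Cacna1e* at 12.1 ± 0.87 CPM per kb were likewise not separated (the same exact test, p = 0.721). The remaining members were lower by more than the spread between mice. *Cacna1d* had 5.06 ± 0.36 and *Cacna1h* 5.00 ± 0.59 CPM per kb, without a separation (exact permutation test, p = 0.68), and *Cacna1c* had 4.43 ± 0.42 CPM per kb, below *Cacna1h* in 9 of 10 mice (exact permutation test, p = 0.00391) with overlapping ranges. The 3 other steps in this order, *Cacna1a* over *Cacna1i*, *Cacna1b* over *Cacna1g* and *Cacna1e* over *Cacna1d*, were seen in 10 of 10 mice (exact permutation test, p = 0.00195, the smallest that 10 mice allow).

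This order belongs to the length chosen. The merged exons of *Cacna1e* (25228 bases) and *Cacna1c* (21191 bases) are much longer than their coding sequences (6819 and 6666 bases), while in *Cacna1h* they are 9763 bases against 7077. Per kilobase of coding sequence, *Cacna1e* led with 44.7 ± 3.23 CPM per coding kb, above *Cacna1a* with 35.95 ± 1.11 in 10 of 10 mice, and *Cacna1c* rose to sixth place with 14.1 ± 1.35, above *Cacna1d* with 9.76 ± 0.69 and *Cacna1h* with 6.90 ± 0.81. None of the 8 subunits kept its place between the 2 scales. Under both scales *Cacna1a* stood above *Cacna1i* and *Cacna1b* above *Cacna1g* in 10 of 10 mice. *Cacna1d* stood above *Cacna1h* in 10 of 10 mice per coding length but in 4 of 10 per merged exon length, and *Cacna1i* above *Cacna1b* in 9 of 10 and 8 of 10.

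**Figure D1:**
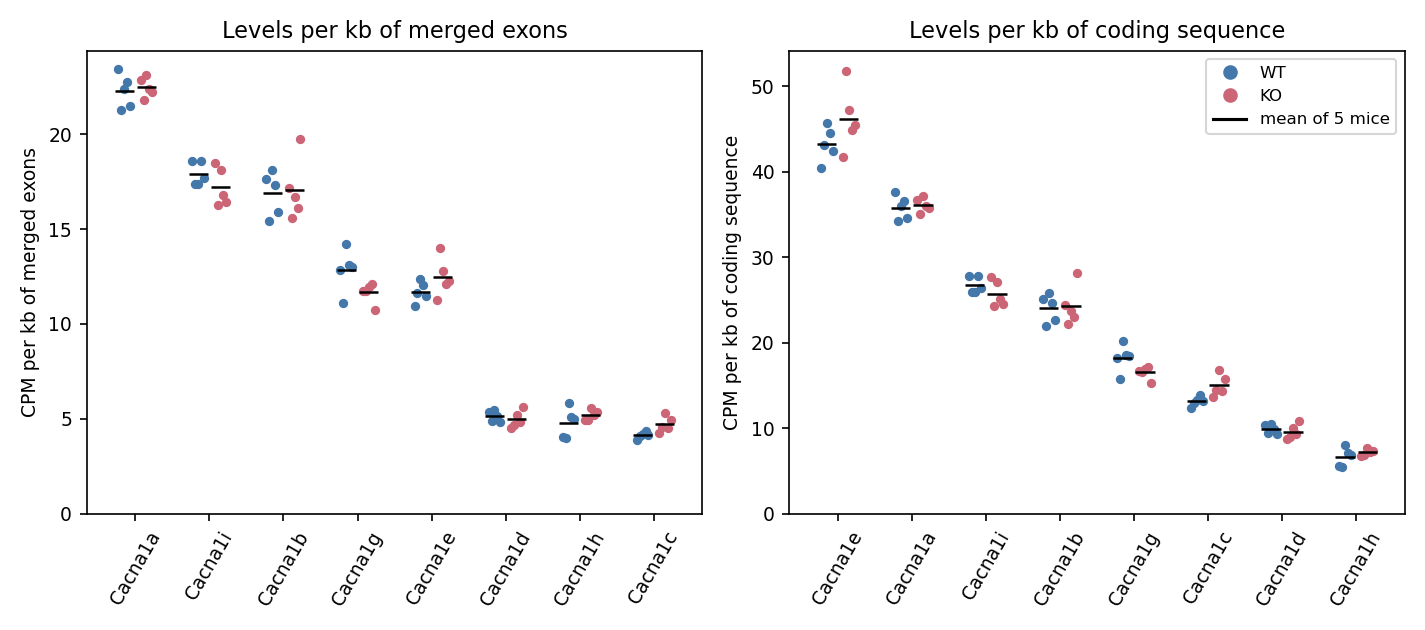
CPM per kilobase of merged exons (left) and per kilobase of coding sequence (right) of the 8 alpha-1 subunits, ordered by their mean; points are mice (5 WT in blue, 5 KO in red) and black lines are genotype means. *Cacna1a* leads on the left at 22.4 CPM per kb and *Cacna1e* on the right at 44.7 CPM per coding kb, and the genotypes overlap for each gene.

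Whether the channel family differs between genotypes was tested in edgeR by a quasi-likelihood model of genotype with 3 surrogate variables. A surrogate variable gives each mouse a number, drawn from the expression data, to absorb a difference between libraries other than genotype. Such a difference may be unlabelled or labelled, as RIN is. P-values were adjusted by the Benjamini-Hochberg method over the 14344 genes that passed the filter on low counts. None of the 8 alpha-1 subunits passed an adjusted p of 0.05, against 0.844% of all genes tested (121 genes). An unadjusted p under 0.05 was reached by 2 of 8 subunits, *Cacna1c* and *Cacna1g*, against 10.6% of all genes. DESeq2 with the same surrogate variables called 0 of 8 (1.6% of all genes), with 2 of 8 at an unadjusted p under 0.05 (9.49% of all genes). A linear model on log2(CPM + 1) called 0 of 8 (0.0139% of all genes), with 0 of 8 at an unadjusted p under 0.05 (9.43% of all genes). For none of the subunits did the CPM of KO and WT mice fail to overlap, against 1.63% of all genes. The median size of the log2 fold change, without its sign, was 0.06 in the 8 subunits and 0.06 over all genes tested. The median standard error was smaller in the 8 subunits, 0.043 against 0.068, so the 2 medians do not carry the same error. The fold changes of the subunits split evenly, 4 above and 4 below 0. The 95% intervals of the 8 fold changes lay between 0.837-fold and 1.21-fold, so larger changes lay outside the intervals of this model. In bulk tissue, fewer cells of a type and less RNA per cell cannot be told apart.

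**Figure D2:**
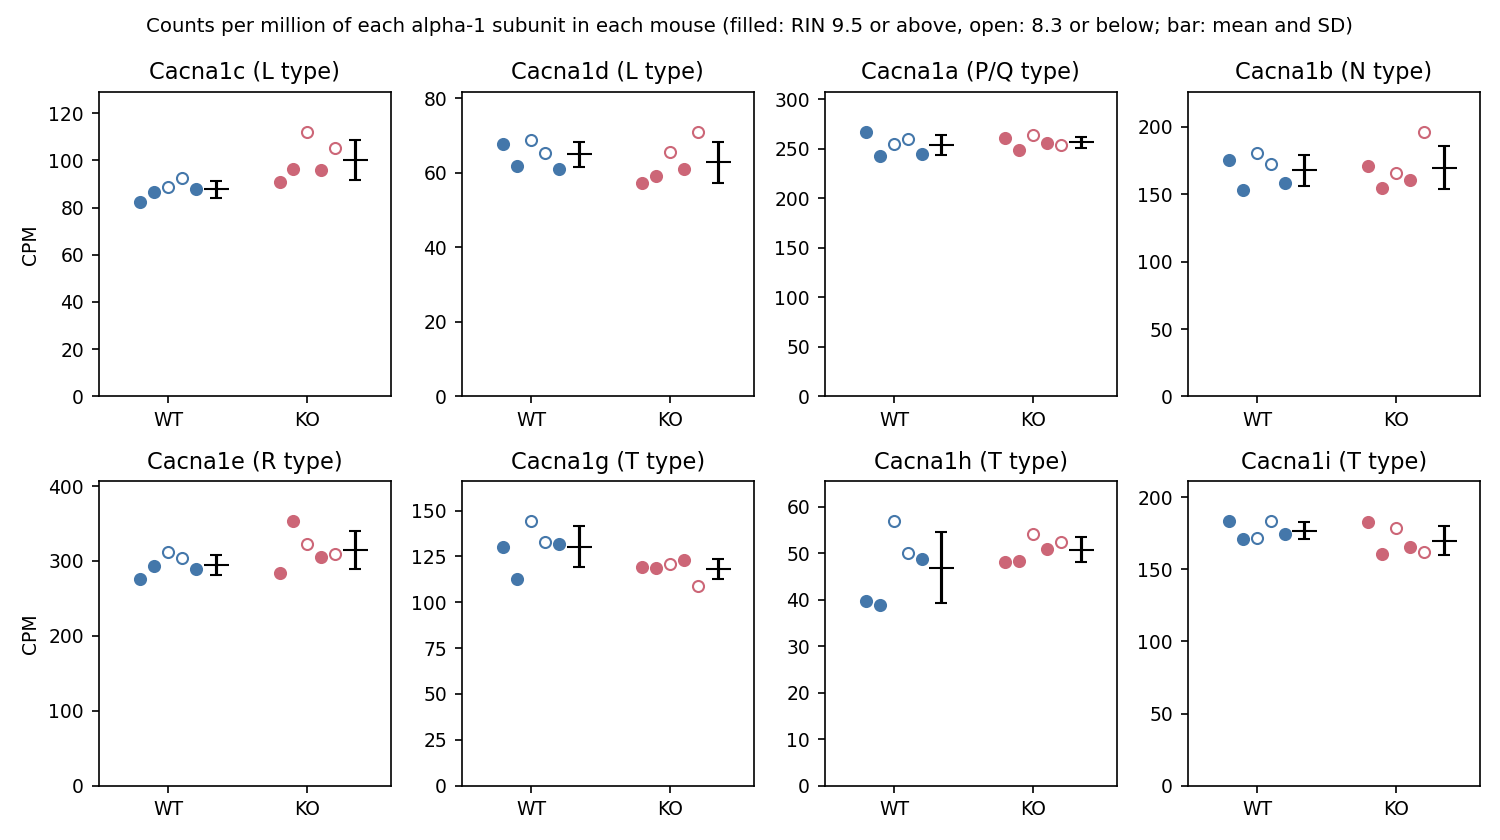
CPM of each alpha-1 subunit in each mouse, WT in blue and KO in red, with the mean and SD of 5 mice beside each group; filled points are mice with a RIN of 9.5 or above and open points those with 8.3 or below. *Cacna1c* shows the largest upward shift relative to its WT mean, 100.1 against 87.7 CPM, and in all 8 panels the groups overlap.

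Among the L-type subunits, *Cacna1c* (ENSMUSG00000051331.15, chromosome 6 of GRCm38, 118587240 to 119196418, minus strand) had the smallest p-value of the family. It is the main L-type subunit of brain and heart and a well-known risk gene for psychiatric disorders. Its level was 90.7, 96.5, 112, 96.0 and 105 CPM in KO mice 1 to 5 and 82.5, 86.5, 88.8, 92.6 and 88.0 CPM in WT mice 1 to 5. KO mice 2, 3, 4 and 5 lay above each WT mouse, and KO mouse 1 lay within the WT range. The means were 100.1 ± 8.50 CPM in KO and 87.7 ± 3.66 CPM in WT mice (SD over 5 mice), and the log2 fold change was 0.16 (standard error 0.05, 95% interval 0.05 to 0.28). With an unadjusted p of 0.00788 it ranked 485th of the genes tested and did not pass the threshold (edgeR, adjusted p = 0.233). Taken as a single gene without covariates, *Cacna1c* had a p of 0.0159 in an exact two-sided permutation test of the mice.

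The difference in *Cacna1c* had the same sign in all 24 alternative analyses, with log2 fold changes from 0.09 (4 surrogate variables) to 0.26 (the 4 mice of low RIN alone), and adjusted p-values from 0.1004 to 0.865 in edgeR, DESeq2 or the linear model. RIN moved with this gene. Within the mice of RIN 9.5 or above it was at 94.4 CPM in KO and 85.7 CPM in WT mice, and within those of 8.3 or below at 108.6 and 90.7 CPM. Both classes had the higher mean in KO mice, and the KO mice with the 2 highest values, mice 3 and 5, were the KO mice of low RIN. Without KO mouse 3 the KO mean was 97.1 ± 5.98 CPM (SD, n = 4) and the log2 fold change was 0.10 (edgeR, adjusted p = 0.539). Smooth muscle cells also use *Cacna1c*, and their part in its values was not tested. Of 6 mural and smooth muscle markers 0 passed the threshold (0.844% of all genes), and 0 had an unadjusted p under 0.05 in edgeR (10.6% of all genes). The log2 fold change was above 0 in 1 and below 0 in 5, from -0.34 (*Acta2*) to 0.003 (*Tagln*). The summed level of the 6 was 183 to 216 CPM in KO and 189 to 225 CPM in WT mice. Group means ran from 5.06 CPM (*Tagln*, KO mice) to 120 CPM (*Rgs5*, WT mice).

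*Cacna1d* (ENSMUSG00000015968.17, chromosome 14, 30039939 to 30491455, minus strand), the L-type subunit that opens at lower voltage and supports pacemaking, had values that differed less. It was at 57.2, 59.0, 65.6, 61.0 and 71.0 CPM in KO and 67.6, 61.8, 68.9, 65.2 and 61.1 CPM in WT mice. KO mice 1, 2 and 4 lay below the lowest WT mouse and KO mouse 5 above the highest. The log2 fold change was -0.09 (standard error 0.05, edgeR, adjusted p = 0.544). It lay between -0.151 (without WT mouse 5) and -0.0561 (without KO mouse 1) when 1 mouse was left out, at -0.107 without KO mouse 3, and at -0.0424 without surrogate variables. Its exons share 589 bases, 4.67% of their length, with *Chdh* on the opposite strand, a gene with 4.28 CPM in WT mice, and its count is uncertain to that extent, as the sources used here do not say whether strand was used in counting.

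The level of *Cacna1c* relative to *Cacna1d*, per kilobase of merged exons, was 0.944, 0.974, 1.02, 0.937 and 0.882 in KO mice and 0.727, 0.834, 0.768, 0.846 and 0.857 in WT mice. Each KO mouse lay above each WT mouse, at 0.951 ± 0.05 against 0.807 ± 0.056 (SD, n = 5 each). This pair was picked after its values had been seen and is given as a description. Of the 28 pairs that the 8 subunits form, 2 had ratios without overlap between the genotypes, the other being *Cacna1g* to *Cacna1h*. The pairs share genes, and of all single genes tested 1.63% did not overlap; the same share was not computed for ratios. The KO mean of the *Cacna1c* to *Cacna1d* ratio was 0.934 ± 0.038 without KO mouse 3 (SD, n = 4).

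The presynaptic subunits had the narrowest intervals of the family. *Cacna1a* (ENSMUSG00000034656.17, chromosome 8, 84388440 to 84640246, plus strand), which drives fast transmitter release, ranged from 248.8 to 264 CPM in KO and from 243 to 267 CPM in WT mice. The fitted log2 fold change was 0.03 (95% interval -0.04 to 0.10, edgeR, adjusted p = 0.821), and its coefficient of variation was 2.304% in KO mice, the lowest of the family there, and 3.98% in WT mice. *Cacna1a* shares 435 bases, 3.81% of its exons, with the antisense gene *Gm16183*. *Cacna1b* (ENSMUSG00000004113.18, chromosome 2, 24603887 to 24763152, minus strand), the N-type subunit, ranged from 155 to 196 CPM in KO and from 153 to 180.3 CPM in WT mice. KO mouse 5 alone lay above the WT range. Its log2 fold change was -0.02 (95% interval -0.09 to 0.05, edgeR, adjusted p = 0.914), and its sign turned in 7 of 24 alternatives.

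*Cacna1e* (ENSMUSG00000004110.16, chromosome 1, 154390731 to 154884501, minus strand), whose R-type current acts in dendritic spines and terminals, was at 284, 353, 322, 306 and 309.8 CPM in KO mice and at 276, 294, 312, 304 and 289 CPM in WT mice. KO mice 2 and 3 lay above the WT range and the others within it. The means were 315 ± 25.3 and 295 ± 13.8 CPM (SD, n = 5 each). In edgeR *Cacna1e* had a log2 fold change of 0.06 (95% interval -0.02 to 0.13, adjusted p = 0.626). It was 0.0115 without KO mouse 2, the mouse with the highest value, 0.110 without KO mouse 1 and 0.150 in mice of RIN 9.5 or above, and 0.0494 without KO mouse 3.

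Among the T-type subunits *Cacna1g* (ENSMUSG00000020866.17, chromosome 11, 94408391 to 94474198, minus strand) had the largest difference downward in the family. This subunit carries much of the burst firing of thalamic relay neurons and is also used in cortex. Its level was 119, 119, 121, 123 and 109 CPM in KO mice and 130.0, 113, 144, 133 and 132 CPM in WT mice. All 5 KO mice lay below the WT mean, but WT mouse 2 lay below KO mice 1 to 4, so the groups overlapped. The means were 118 ± 5.44 and 130.3 ± 11.3 CPM (SD, n = 5 each), and the log2 fold change was -0.14 (standard error 0.06, 95% interval -0.26 to -0.02). This did not pass the threshold (edgeR, unadjusted p = 0.0255, adjusted p = 0.367), and the exact two-sided permutation test of the single gene gave p = 0.0635.

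The sign of the *Cacna1g* difference held in all 24 alternatives, but its size followed the mice that were used. In mice of RIN 9.5 or above *Cacna1g* was at 120.3 CPM in KO and 125 CPM in WT mice, and in those of 8.3 or below at 115 and 139 CPM, with log2 fold changes of -0.04 and -0.27 in edgeR (adjusted p = 0.957 and 0.865). Without WT mouse 2 it was -0.17 (edgeR, adjusted p = 0.0802), the smallest adjusted p of any member in any alternative, and without WT mouse 3 it was -0.09 (edgeR, adjusted p = 0.745). Without KO mouse 3 the value was -0.13 (edgeR, adjusted p = 0.619). Thalamic tissue would bring *Cacna1g* with it. Of 7 thalamic markers 6 were tested and 0 passed the threshold (0.844% of all genes). The summed level of the 7 was 121 to 166 CPM in KO and 137 to 194 CPM in WT mice. Most of this sum was *Rora*, with means of 99.0 CPM in KO and 113 CPM in WT mice. *Gbx2*, the marker too low to test, was at 0.00977 CPM in KO and 0.0157 CPM in WT mice. Of the 6 tested, 2 had a log2 fold change above 0 and 4 below, and 1 of 6 had an unadjusted p under 0.05 (10.6% of all genes), *Calb2*, which was higher in KO mice at 11.1 against 8.31 CPM. *Tcf7l2* was at 2.98 CPM in KO and 3.65 CPM in WT mice, with a log2 fold change of -0.35. Those of *Slc17a6*, *Lef1* and *Rora* were -0.14, -0.06 and -0.03, and that of *Prkcd* was 0.11. The part of these cells in the *Cacna1g* values was not tested.

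*Cacna1h* (ENSMUSG00000024112.16, chromosome 17, 25374285 to 25433783, minus strand) was at 48.0, 48.4, 54.2, 50.9 and 52.3 CPM in KO mice and at 39.6, 38.8, 56.9, 50.05 and 48.8 CPM in WT mice. It varied most in WT mice, with a coefficient of variation of 16.3%, where mice 1 and 2 lay below each KO mouse. Its log2 fold change was 0.06 (95% interval -0.11 to 0.23, edgeR, adjusted p = 0.86), and 0.121 without surrogate variables. The value moved with the RIN class. In mice of RIN 9.5 or above it was 0.23 (edgeR, adjusted p = 0.631), at 49.1 CPM in KO and 42.4 CPM in WT mice. In those of 8.3 or below it was -0.0111, at 53.2 and 53.5 CPM. The exons of *Cacna1h* share 158 bases, 1.62% of their length, with *Tpsg1* on the opposite strand. *Cacna1i* (ENSMUSG00000022416.15, chromosome 15, 80287238 to 80398279, plus strand), a T-type subunit found mainly in neurons, ranged from 161 to 182 CPM in KO and from 171 to 183 CPM in WT mice. KO mice 2, 4 and 5 lay below the lowest WT mouse. The log2 fold change of *Cacna1i* was -0.02 (95% interval -0.10 to 0.06, edgeR, adjusted p = 0.914).

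**Figure D3:**
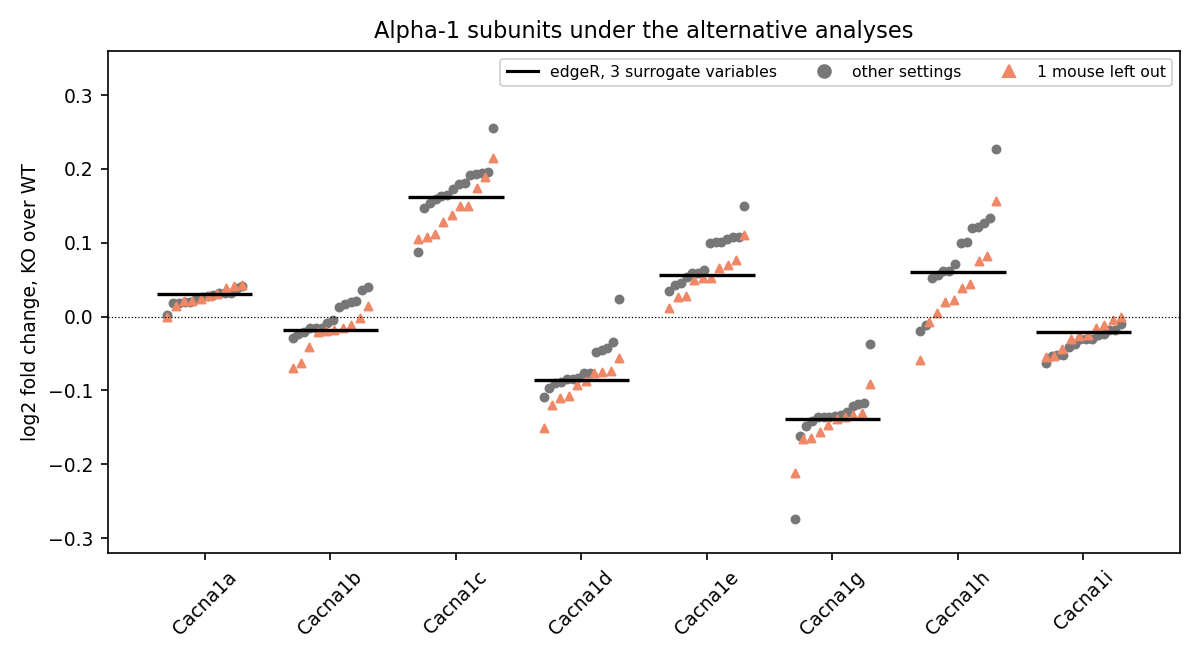
Log2 fold change (KO over WT) of each alpha-1 subunit; the black line is the edgeR value with 3 surrogate variables, grey circles are 14 other settings and orange triangles are the fits without 1 of the 10 mice. *Cacna1c* stays above 0 throughout, from 0.09 to 0.26, *Cacna1g* stays below 0, from -0.27 to -0.04, and none of these values passed the threshold.

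The composition of the channel pool was compared as the share of each type in the summed level of the 8 subunits, per kilobase of merged exons. The sum was 95.8 ± 2.17 CPM per kb in KO and 95.7 ± 4.08 CPM per kb in WT mice (SD, n = 5 each). T-type subunits held the largest share, 35.6 ± 1.35% in KO and 37.2 ± 0.78% in WT mice. P/Q type held 23.5 ± 0.45% and 23.3 ± 0.71%, N type 17.8 ± 1.48% and 17.6 ± 0.56%, and R type 13.05 ± 1.16% and 12.2 ± 0.60%, in KO and WT mice. L type held 10.1 ± 0.65% in KO and 9.70 ± 0.17% in WT mice. The shares overlapped between genotypes for each of the 5 types. Per coding length the R-type share was 25.6% in KO and 24.3% in WT mice and the T-type share 27.4% and 29.0%, so the rank of the types, though not the direction of the differences for L, R and T type, depended on the length used. The differences also moved with the mice. The L-type difference, 0.409 percentage points higher in KO mice, was -0.041 in mice of RIN 9.5 or above and 0.220 without KO mouse 5, and the T-type difference, -1.59 points, was -0.856 and -1.05. The N-type difference went from 0.174 to -0.446 points without KO mouse 5, and the R-type difference from 0.828 to 0.347 points without KO mouse 2. Without KO mouse 3 the differences were 0.279 (L), 0.188 (P/Q), 0.395 (N), 0.855 (R) and -1.72 (T) points.

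Some members differed with RNA quality, for which RIN stands. *Cacna1h* was at 45.8 ± 5.16 CPM in the 6 mice of high RIN and 53.4 ± 2.91 CPM in the 4 of low RIN (exact two-sided permutation test, p = 0.019). *Cacna1d* was at 61.3 ± 3.52 and 67.7 ± 2.76 CPM (exact permutation test, p = 0.0286), and *Cacna1b* at 162 ± 8.98 and 179 ± 13.2 CPM (exact permutation test, p = 0.0571). For *Cacna1c* the test gave p = 0.124 on the values as they were and p = 0.00952 after the genotype mean was subtracted (exact permutation tests), at 90.0 ± 5.51 and 99.7 ± 10.8 CPM. These tests were made for each of the 8 subunits and are not adjusted. Without KO mouse 3, which leaves 3 mice of low RIN, the exact permutation p was 0.0476 for *Cacna1h*, *Cacna1d* and *Cacna1b* alike and 0.31 for *Cacna1c*; this alternative was added after seeing the data. All 8 means were lower in mice of high RIN, by less than 0.06 on the log2 scale for *Cacna1a*, *Cacna1e*, *Cacna1g* and *Cacna1i*.

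How the subunits varied together from mouse to mouse was described after subtracting the genotype means. Of 28 pairs, 22 had a positive and 6 a negative Pearson correlation, with a median r of 0.21. The largest was that of *Cacna1b* and *Cacna1d* (n = 10, r = 0.81, permutation p = 0.00517, adjusted p = 0.145 over the 28 pairs; rho = 0.71, permutation p = 0.0274, adjusted p = 0.219). It was 0.63 without the 2 mice farthest from the median of *Cacna1b* and 0.48 in the 6 mice of high RIN, and the 4 mice of low RIN were too few for a value. None of the 28 pairs passed the adjustment by r or by rho. The libraries share depth and RIN, so these values describe the mice and not a link between the genes.

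The auxiliary subunits, from lists of beta, alpha2delta and gamma genes, were examined with the same fit. Of 16 genes 15 were tested, *Cacng1* being too low, and 0 passed the threshold in edgeR (0.844% of all genes). An unadjusted p under 0.05 was reached in edgeR by 1 of 15 (10.6% of all genes). DESeq2 and the linear model called 0 as well (1.6% and 0.0139% of all genes). The log2 fold change was above 0 in 11 and below 0 in 4, with a median of 0.03 beside -0.004 over all genes tested, of which 51.9% were below 0. The 4 beta subunits, the cytoplasmic partners that carry the pore to the membrane, had fitted values above 0, with a median of 0.07. The plain mean CPM of *Cacnb4* (414 in KO, 440.5 in WT mice) and *Cacnb1* (173 and 174) went the other way. Of the alpha2delta subunits, 3 of 4, the extracellular partners of which some bind gabapentin, were below 0, with a median of -0.03. Of the 7 gamma genes tested, most of which are known better as partners of AMPA receptors, 6 were above 0.

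*Cacnb3* had the highest level per kilobase of merged exons among the beta subunits, 74.1 CPM per kb. It was at 322, 288, 306, 301 and 317 CPM in KO mice and at 314, 269, 289.8, 284 and 282 CPM in WT mice, with overlapping groups. Its log2 fold change was 0.11 (standard error 0.04, edgeR, adjusted p = 0.276), and it was the auxiliary subunit with the unadjusted p under 0.05. *Cacna2d1* led the alpha2delta subunits with 24.4 CPM per kb and *Cacng7* the gamma genes with 75.8 CPM per kb. Their log2 fold changes were -0.01 and 0.01 (edgeR, adjusted p = 0.948 and 0.97).

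**Figure D4:**
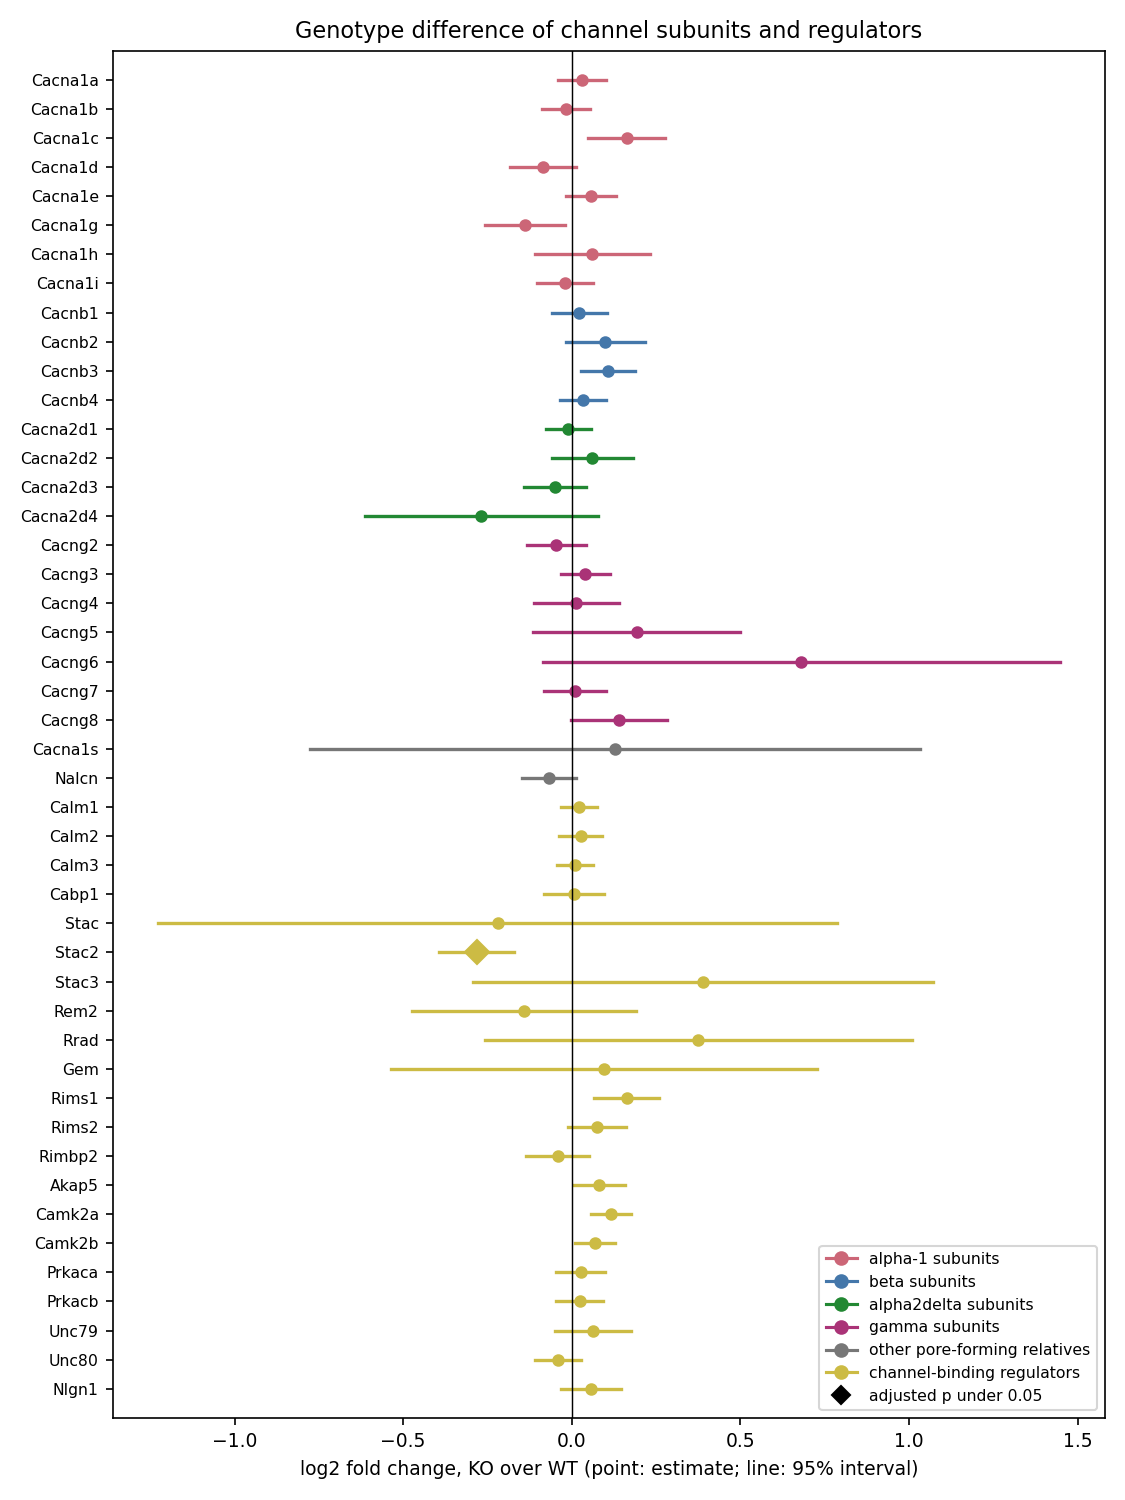
Log2 fold change (KO over WT) with its 95% interval for the 8 alpha-1 subunits, 15 auxiliary subunits, 2 pore-forming relatives and 21 channel-binding regulators that were tested with edgeR. The diamond marks the single gene past the threshold, *Stac2* at -0.28. The intervals of *Cacna1c*, *Cacna1g*, *Cacnb3*, *Rims1*, *Akap5*, *Camk2a* and *Camk2b* also leave 0 out before adjustment.

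A list of 22 regulators was examined next, most of whose proteins bind or modify these channels. It also held partners of the sodium leak channel and a synaptic adhesion gene. Of the 22, 21 were tested and 1 passed the threshold in the main analysis, lower in KO mice. Of all genes, 0.844% were called in either direction and 0.244% lower. The regulator that passed was *Stac2*, which encodes an adaptor that binds L-type channels and slows their inactivation. It was at 137, 115, 123, 138 and 107 CPM in KO mice and at 165, 153, 155, 154 and 170.5 CPM in WT mice. Each KO mouse lay below each WT mouse, in 1 of the 21 regulators tested (1.63% of all genes did not overlap). The means were 124 ± 13.5 and 159 ± 8.07 CPM (SD, n = 5 each). The exact two-sided permutation test gave p = 0.00794, the smallest that 5 mice against 5 allow. That p follows from the lack of overlap and is not adjusted. The log2 fold change of *Stac2* was -0.28 (standard error 0.05, edgeR, adjusted p = 0.0148). The sign held in all 24 alternatives, with log2 fold changes from -0.43 to -0.24, but the call held in 13 of them. The 11 in which it was lost included the fit without surrogate variables (edgeR, adjusted p = 0.0531), the linear model (adjusted p = 0.368) and 4 of the 10 fits that left out a mouse, with adjusted p-values of 0.0629, 0.133, 0.0669 and 0.0693 in edgeR without KO mouse 3, WT mouse 3, WT mouse 4 and WT mouse 5.

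Of the 21 regulators 5 had an unadjusted p under 0.05, where 10.6% of all genes did. The other 4 of them, *Rims1*, *Akap5*, *Camk2a* and *Camk2b*, named here after their values were seen, had positive log2 fold changes of 0.16, 0.08, 0.12 and 0.07. *Rims1*, an active-zone scaffold that tethers presynaptic channels, was at 407 ± 10.7 CPM in KO and 372 ± 27.4 CPM in WT mice (SD, n = 5 each), with an adjusted p of 0.132 in edgeR. *Camk2a* was at 4065 ± 199 CPM in KO and 3747 ± 159 CPM in WT mice (edgeR, adjusted p = 0.0684). For *Akap5* and *Camk2b* the adjusted p in edgeR was 0.425 and 0.376. *Calm2*, 1 of 3 calmodulin genes, had the highest level of the regulators, 1120 CPM per kb of merged exons, and a log2 fold change of 0.03. The close relatives of the 8 subunits were examined as well. *Cacna1f*, the retinal L-type subunit, did not pass the filter on low counts, *Cacna1s*, the skeletal muscle subunit, was at 0.605 CPM in KO and 0.559 CPM in WT mice, and *Nalcn*, the sodium leak channel, was at 126 and 130.0 CPM (edgeR log2 fold change -0.07).

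Over the 10 mice, after subtracting the genotype means, the profiles most like that of *Cacna1c* were those of *Usp49* (r = 0.97), *Tmppe* (r = 0.92) and *Csmd2* (r = 0.91). These were the 3 highest of all genes tested, the mice share library depth and RIN, and no test was made. None of the 3 was called between genotypes. Marker lists for other cells of the dissected tissue held no called gene (0.844% of all genes were called). Of 8 interneuron markers 7 had a negative log2 fold change (51.9% of all genes) and 4 an unadjusted p under 0.05 (10.6% of all genes), with summed levels of 876 to 948 CPM in KO and 919 to 1036 CPM in WT mice. *Vip* was the 1 of these 8 without overlap (1.63% of all genes), at 32.5 to 45.4 CPM in KO and 45.9 to 51.1 CPM in WT mice (edgeR, adjusted p = 0.189). Striatal neuron markers, 9 of which were in the table, summed to 331 to 496 CPM in KO and 305 to 608 CPM in WT mice, with 4 of 9 at an unadjusted p under 0.05 against the same 10.6%. With a striatal marker score in place of the surrogate variables, the log2 fold changes of *Cacna1c* and *Cacna1g* were 0.20 and -0.12 (edgeR, adjusted p = 0.474 and 0.733). The part of interneurons in the values of the channel genes was not tested.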

How the data were processed

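Total RNA of the PFC of 5 KO and 5 WT mice was sequenced from stranded mRNA libraries. The authors aligned reads to mm10 with STAR (2.7.1a), kept uniquely mapped reads, and ran HTSeq (0.9.1, intersection-strict mode) on the exons of Gencode M21 protein-coding genes. What was deposited is raw counts for 22000 genes. Counts on exons shared with another gene are uncertain.

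Genotypes were compared in edgeR (4.0.16, R 4.3.3) by its quasi-likelihood test after TMM scaling and filterByExpr. The Benjamini-Hochberg threshold was 0.05, and the terms were genotype and 3 surrogate variables (sva 3.50.0, seed 1, on log2(CPM + 1)). CPM are scaled to the library total. Single genes were also tested by exact permutation of the mice, and DESeq2 (1.42.0) and linear models served as alternatives. Intervals are 95% intervals of the fit. The floor is 3 counts and covers counting error only, as the reads carry no molecular identifiers. P-values measure the spread between these libraries, 1 per mouse by the labels. Lengths and sequences are from Gencode M21 of GRCm38 (mm10). Python 3.11.15, scipy 1.17.1 and matplotlib 3.10.9 were used. The scripts were tested on simulated data.

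The 8 members, the other lists and the tests were chosen with earlier results of these data known. The named genes were the 8 members, list genes past the threshold or without overlap between genotypes, the highest per kilobase in each list of subunits and among regulators, the 3 profiles most like *Cacna1c*, and genes whose exons overlap a member. Beyond that rule, 4 regulators, 2 beta subunits, *Cacng1*, the 3 pore-forming relatives and the cell type markers other than *Vip* were named after their values were seen. No 2 libraries agreed within sampling noise.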

Additional observations from a re-analysis of the deposited data

Results flagged for a closer look

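Of 32 groups of 5 mice tested for a single outlying mouse, over the levels, shares and ratios of the alpha-1 subunits and the level of *Stac2*, 1 was flagged, where chance flags about 1 in 20. The L-type share of the summed alpha-1 level was 10.0002% in WT mouse 2, above the 9.56% to 9.68% of the other WT mice and within the range of the KO mice, 9.24% to 10.9%.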

How the results depend on the processing

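None of the 8 alpha-1 subunits and none of the 15 auxiliary subunits tested was called in any of the 24 alternatives, which changed the surrogate variables, the covariates, the mice, the tool, the normalization and the filter. The number of genes called over the whole table, 121 in the main analysis, was 30 without surrogate variables, 34 with 1 and 57 with 2, 38 with RIN and 13 with the striatal score in their place, 1 in mice of RIN 9.5 or above, 0 in those of 8.3 or below, where edgeR gave 813 genes an unadjusted p under 0.05, 229 with DESeq2, 2 with the linear model and 39 to 248 without 1 mouse. Of the regulators, 1 was called in the main analysis, 3 with DESeq2, 0 to 3 without 1 mouse, and 0 without surrogate variables, with 1 of them, with the striatal score, in either RIN class and with the linear model. Of the 8 places in the order of levels, 0 were kept with coding length and 4 to 8 without 1 mouse. The log2 fold changes that turned sign were all within 0.06 of 0. For *Cacna1b* they were 0.0212 without surrogate variables, 0.0177 with RIN, 0.0398 with the striatal score, 0.0130 in high RIN and 0.0353 in low RIN, for *Cacna1d* 0.0236 in low RIN, and for *Cacna1h* -0.0198 with 4 surrogate variables and -0.0111 in low RIN. Without 1 mouse the values lay between -0.0011 and 0.0432 for *Cacna1a*, between -0.0694 and 0.0142 for *Cacna1b*, between -0.0585 and 0.156 for *Cacna1h*, between -0.151 and -0.0561 for *Cacna1d* and 0.0115 and 0.110 for *Cacna1e*. The RIN difference of *Cacna1c* was -0.14 on the log2 scale with or without its genotype mean, with p = 0.00952 in the exact permutation test after subtraction. Without KO mouse 3, an alternative added after seeing the data, the RIN difference was -0.173 for *Cacna1b* (exact permutation test, p = 0.0476) and 0.0053 for *Cacna1i*, which turned sign. The correlation of *Cacna1b* and *Cacna1d* was 0.48 and that of *Cacna1e* and *Cacna1i* -0.87 in mice of high RIN, against 0.81 and -0.55 in all 10. The cause of these shifts was not tested.

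The labels number the mice 1 to 5 in each genotype without saying what a number shares. Mice of the same number deviated together with correlations from -0.11 to 0.17, and 2 of 5 correlated best with their own number, so the numbers were not taken to pair the mice. With the replicate number as a block and no surrogate variables, 24 genes were called, 0 alpha-1 subunits and 0 regulators among them, with log2 fold changes of 0.0192 for *Cacna1b* and 0.19 for *Cacna1c* (edgeR, adjusted p = 0.237).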
